A study of Mus musculus with 6 samples.

Results

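Solute carriers for amino acids, sugars and monocarboxylates bring fuel and building blocks across the plasma and lysosomal membranes. The carriers described here were the genes of the solute carrier families Slc1, Slc2, Slc3, Slc6, Slc7, Slc16, Slc36, Slc38 and Slc43, chosen by gene symbol and grouped by the substrate they are known for. They were 89 of the 52997 genes in the count table. RNA was measured in CD4+ T cells, described by the series as naive, from pooled lymph nodes of Foxp3-GFP mice (C57BL/6), where cells that express the regulatory T cell factor Foxp3 carry a fluorescent reporter. Infant mice were 10 days old and adult mice 7 weeks old, with 3 mice and 3 libraries in each group, and each library came from 1000 double-sorted cells. The library titles call the cells Tconv, and the sources used here do not give the sorting gate. The comparison asked how carrier RNA in these cells differed between the ages.

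Resting naive T cells take up little glucose and amino acid, and activation is known to raise the carriers Slc2a1 (GLUT1), Slc1a5 (ASCT2) and Slc7a5 (LAT1). Slc3a2 encodes the CD98 heavy chain, with which several Slc7 light chains must pair to reach the cell surface. Some members of the Slc16 family, such as Slc16a1 and Slc16a3, carry lactate, and others carry other substrates. A few carriers, among them Slc38a9, act at the lysosome, where amino acid supply is sensed for the growth kinase complex mTORC1.

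Library totals ran from 3421253 to 4887371 counts. Adult replicate 2 stood apart: 36373 genes had a count there, and 17992 to 21840 in each remaining library. The T cell label held: 8 of 8 CD4+ T cell markers (Cd3d, Cd3e, Cd3g, Cd4, Lck, Trbc1, Trbc2 and Cd28) passed the filter on low counts, with a summed level of 6792 to 7734 CPM (counts scaled to TMM-adjusted library size) in adults and 7165 to 7475 in infants. Cd4 was at 979.9 ± 136 CPM in adults (mean ± SD, n = 3) against 867 ± 10.4 in infants. Cd3e was at 615 ± 20.6 and 599 ± 34.7. Summed B cell markers reached at most 17.0 CPM, myeloid markers 25.9, erythroid markers 9.94, platelet markers 3.41, gamma-delta T cell markers 8.24 and regulatory T cell markers 22.7. Hba-a1 had no count in any library, nor did Ncr1 or Klra8 of the natural killer list. That list summed to 79.0 to 92.1 CPM in adults against 17.2 to 29.1 in infants, nearly all of it Prf1. Thymocyte markers summed to 87.0 to 93.8 and 57.0 to 58.8 CPM, with no count of Rag1, Rag2 or Ptcra outside adult replicate 2, and CD8 markers to 31.3 to 36.5 and 32.0 to 41.8. The stromal list summed to 317 to 395 CPM, nearly all of it Pecam1, and Ccl19 had no count in any library. Cycling-cell markers summed to 9.45 to 29.5 CPM in adults against 67.0, 71.1 and 147 in infants. Of 5 tested by the fit described below, 3 were called higher in infant cells: Mki67, Top2a and Ccna2. Cdk1 overlapped between the ages (2.42, 3.69 and 0 against 2.51, 3.14 and 8.69 CPM). Ccnb1, not tested, had 0, 12 and 8 counts in adults against 1, 2 and 37 in infants. The summed cycling level thus differed between the ages beside every result below, and its part in them was not tested.

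Of the 89 carriers, 31 were expressed, defined as at least 10 counts in at least 3 libraries, and the same 31 passed the filter of the test across all genes. Slc7a4 reached 10 counts in the infants only. Of the other 58 carriers, Slc2a4, the insulin-responsive glucose carrier GLUT4, had no count in any library, which allows up to 0.628 to 0.852 CPM in the single libraries (3 counts, for counting error only). Levels of different genes were compared as CPM per kb of exon. On this scale Slc1a5 stood highest, with 52.9 to 68.2 over the 6 libraries, followed by Slc3a2 with 40.8 to 61.0 and Slc16a5, which encodes MCT6, with 34.5 to 41.6. The ranges of Slc1a5 and Slc3a2 overlapped, as did those of Slc3a2 and Slc16a5, so the order of these neighbours was not set beyond their spread. These 3 genes held 46.9% of the summed per-length level of the expressed carriers, and the first 10 held 79.7%. The ranking and these shares depend on the annotated exon lengths. In mean CPM, Slc38a1, with 17236 bases of exon, was above Slc3a2 (210 against 186 in adults, 256 against 179 in infants). Slc6a6 was likewise above Slc16a5 (156 against 145 and 180 against 136).

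**Figure D1:**
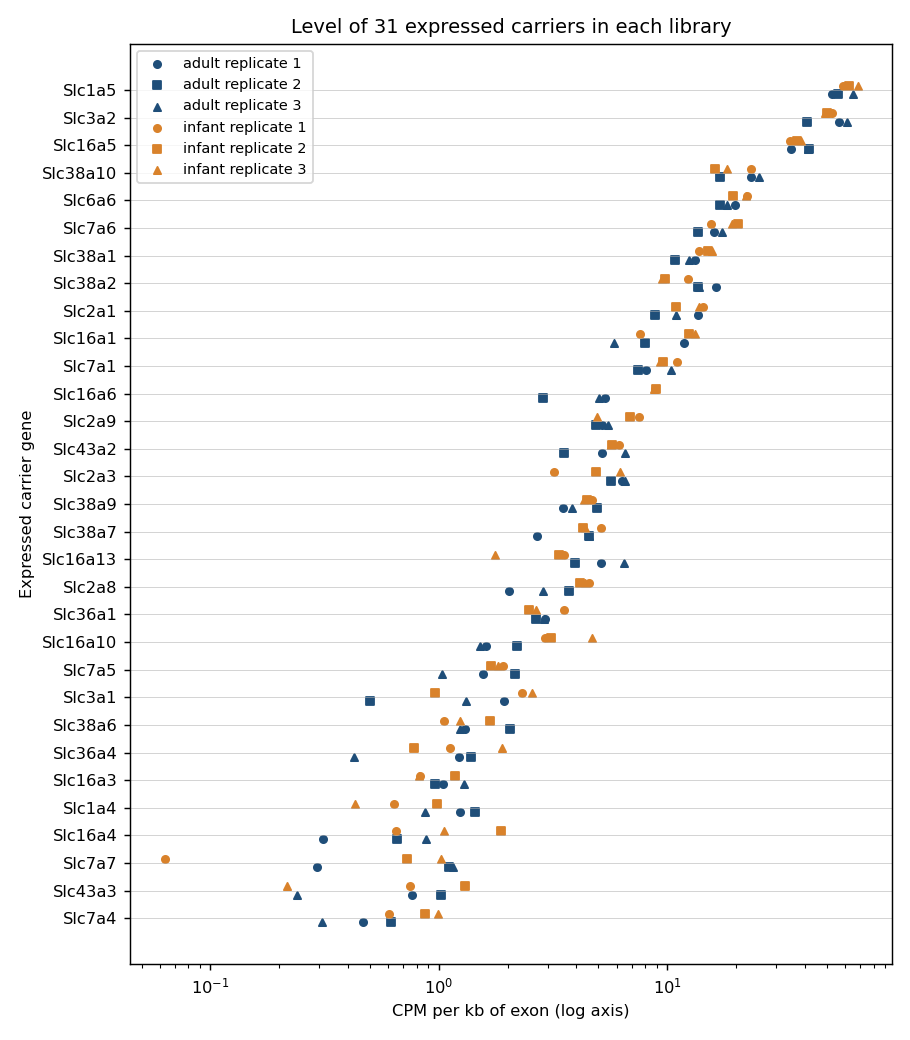
Level of each of the 31 expressed carriers (rows, ordered by mean level) in CPM per kb of exon on a log axis, with 1 point per library, adult in blue and infant in orange. Slc1a5, Slc3a2 and Slc16a5 lie at the top, from 34.5 to 68.2, and the points of a row spread most among the carriers of lowest level.

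Most expressed carriers did not pass the test between ages. At an adjusted p under 0.05 (edgeR quasi-likelihood, Benjamini-Hochberg over 11681 genes) 1 of 31 was called, Slc16a6, higher in infant cells. That is 3.23%, against 3.64% of all tested genes called and 1.52% called higher in infant cells, so the carriers were called about as often as other genes. None was called lower by edgeR, where 2.11% of all genes were. At an unadjusted p under 0.05, 5 carriers passed, 3 higher and 2 lower (16.1% against 17.3% of all genes). DESeq2 called 2 higher and 1 lower, and limma-voom with sample quality weights 1 higher and 1 lower, where 5.32% of all genes (2.29% higher, 3.03% lower) and 4.48% (1.87% higher, 2.61% lower) were called. Without adult replicate 2, Slc16a6 and Slc16a10 were called higher, where 4.07% of all genes were called (1.81% higher, 2.26% lower). Without adult replicate 3, Slc6a19 alone was called, lower, where 1.69% of all genes were called (0.674% higher, 1.02% lower). Slc6a19 is not among the 31 expressed carriers. It passed the filter of this fit, as 1 of 35 carriers, through 16 and 35 counts in adult replicates 1 and 2, with 2, 0 and 0 in the infants. The median log2 fold change, infant over adult, was 0.21 for the expressed carriers and −0.0017 for all tested genes. Of the 31 values, 21 lay above 0 (67.7%, against 49.7% of all tested genes). The 21 include Slc7a4, which passed the filter through the infant libraries only. Without adult replicate 3, 20 of 35 carriers lay above 0 (57.1%, against 48.2% of all genes). Infant and adult values did not overlap for 6 carriers (4 above, 2 below), which is 19.4% against 22.8% of all genes. When adult replicates 1, 2 and 3 were left out in turn the carrier median was 0.21, 0.14 and 0.087, and it was 0.15, 0.14 and 0.19 for infant replicates 1, 2 and 3. The filter was applied anew in each of these fits, so that the medians cover 31 to 35 carriers and not always the same ones.

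The 95% interval of the difference lay inside 2-fold in either direction for 18 of the 31 expressed carriers, and inside 1.5-fold for 10. For the other 13 the data left room for a change of 2-fold or more.

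**Figure D2:**
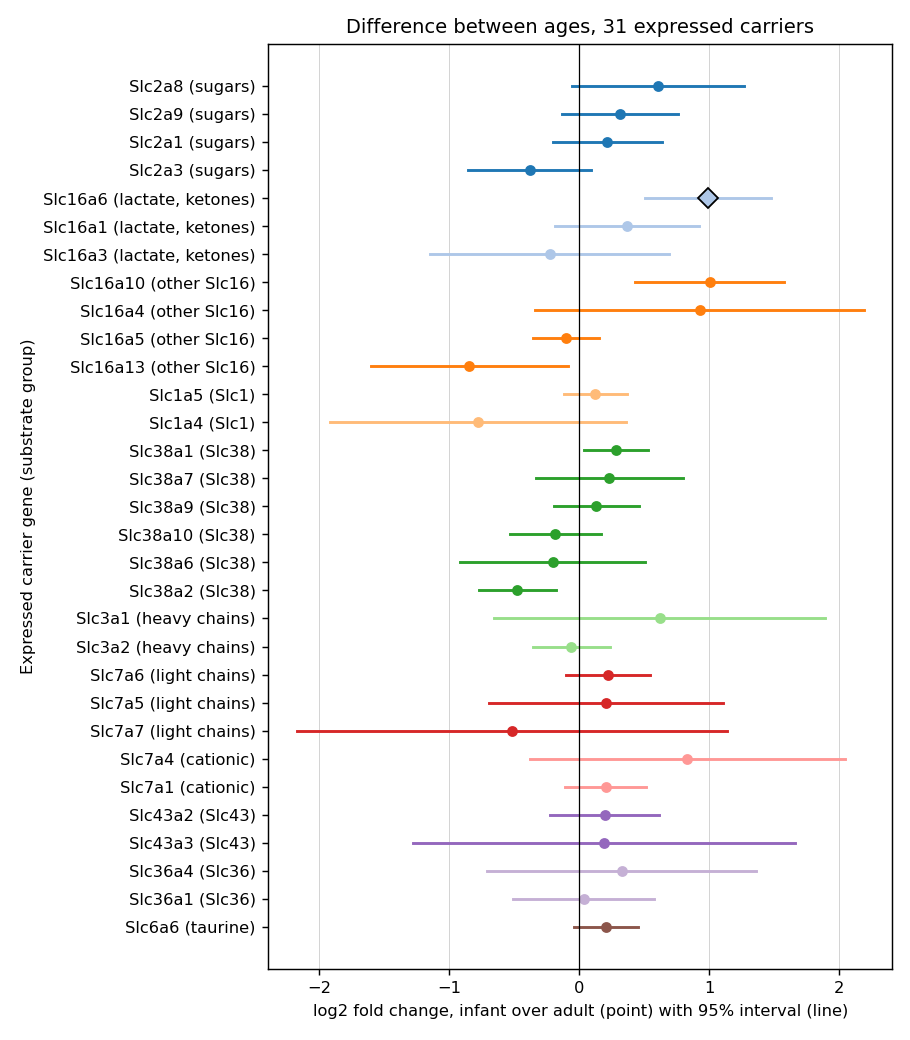
Log2 fold change, infant over adult, of each expressed carrier (point) with its 95% interval (line), grouped and coloured by substrate. The diamond marks Slc16a6, the 1 carrier past the threshold; the widest intervals belong to carriers of low level such as Slc7a7 and Slc7a4.

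Monocarboxylate carriers held the 1 call. Slc16a6, which encodes MCT7, a carrier linked to ketone body transport in liver, lies on chromosome 11 (109450855 to 109473598, minus strand, mm10). Its level was 26.2, 13.9 and 24.6 CPM in the adults (108, 49 and 115 counts) and 43.1, 43.8 and 42.7 CPM in the infants (206, 181 and 177 counts). Every infant library was above every adult library, and the infant values were close together. In these bulk libraries fewer cells with an RNA and less of it per cell cannot be told apart. Slc16a6 was 1.99-fold higher in infant cells (log2 fold change 0.99 ± 0.23, SE, 95% interval 0.51 to 1.48, edgeR adjusted p = 0.0249). The adjusted p was 0.0587 when adult replicate 3 was left out, and 0.0884, 0.127 and 0.0932 when infant replicates 1, 2 and 3 were, so that the call was lost each time. In these 4 fits the log2 fold change was 0.98 to 1.09. The call was kept without adult replicate 1 (log2 fold change 1.15, adjusted p = 0.0474) and without adult replicate 2 (0.77, adjusted p = 0.0472).

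The 5′ end of Slc16a6 overlaps that of Arsg, a gene for a lysosomal sulfatase on the opposite strand (chromosome 11, 109473374 to 109573330), over 225 bases, and the protocol names no strand marking. Arsg had 3.64, 7.10 and 1.496 CPM in the adults against 12.1, 12.6 and 7.97 in the infants, so that its groups did not overlap either. Its log2 fold change was 1.45 ± 0.49 (edgeR adjusted p = 0.132, from 0.0310 without adult replicate 2 to 0.366 without infant replicate 2). At the 3′ end Slc16a6 overlaps Amz2 over 1959 bases, also on the opposite strand, where counts were 247, 193 and 359 in adults and 263, 276 and 242 in infants. The share of reads in these overlaps is not known from a table of counts per gene, and its part in the values of Slc16a6 was not tested.

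The lactate carriers did not pass. Slc16a1, which encodes MCT1, had 52.6, 35.2 and 25.9 CPM in adults against 33.5, 55.1 and 58.4 in infants. Adult replicate 1 lay near the upper infant values and infant replicate 1 lay within the adult range (log2 fold change 0.37, 95% interval −0.18 to 0.93, edgeR adjusted p = 0.518). Slc16a3, the lactate exporter MCT4 of glycolytic cells, was low, with 5.58, 5.11 and 6.84 CPM in adults against 4.40, 6.29 and 4.35 in infants (−0.23 ± 0.43). Summed over Slc16a1, Slc16a3 and Slc16a6, the level was 84.4, 54.3 and 57.3 CPM in adults against 81.0, 105.2 and 105.5 in infants. Adult replicate 1 exceeded infant replicate 1, so the summed levels overlapped.

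Among the other Slc16 genes, Slc16a10 encodes TAT1, a facilitator of aromatic amino acids. It lies on chromosome 10 (40033532 to 40142258, minus strand) and had 11.9, 16.2 and 11.1 CPM in adults against 21.4, 22.7 and 34.3 in infants. All infant values exceeded all adult values, with a log2 fold change of 1.00 ± 0.27 (95% interval 0.43 to 1.58), at an edgeR adjusted p of 0.0529, just above the threshold, so it was not called. DESeq2 called it (adjusted p = 0.0275), limma-voom did not (0.0536), and over all alternatives the adjusted p ran from 0.00459 with no filter to 0.235 without infant replicate 3. Slc16a13 had lower values in infants, with 13.3, 10.2 and 16.9 CPM in adults against 9.21, 8.71 and 4.59 in infants (log2 fold change −0.84 ± 0.35, edgeR adjusted p = 0.232). The most abundant gene of this group, Slc16a5, had 129, 154 and 153 CPM in adults against 128, 137 and 142 in infants, with an interval of −0.36 to 0.16. Slc16a4 was at 2.40 ± 1.11 CPM in adults against 4.62 ± 2.41 in infants (0.93 ± 0.59).

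Within the Slc38 family of small neutral amino acid carriers, 6 of 11 members were expressed, and the 6 did not pass in edgeR. Slc38a1 and Slc38a2, which encode the sodium-coupled glutamine and alanine carriers SNAT1 and SNAT2, are neighbours on the minus strand of chromosome 15 (96571418 to 96642913 and 96687392 to 96699730). Slc38a1 had 229, 187 and 215 CPM in adults against 237, 261 and 271 in infants, all infant values above all adult values (log2 fold change 0.28 ± 0.11, edgeR adjusted p = 0.206). Slc38a2 had 145, 121 and 121 CPM in adults against 109, 86.1 and 83.8 in infants, all infant values below (−0.47 ± 0.14, interval −0.77 to −0.18, edgeR adjusted p = 0.0798). Both DESeq2 and limma-voom called Slc38a2 lower (adjusted p = 0.0450 and 0.0397), and over all alternatives it ran up to 0.312 without infant replicate 2.

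The ratio of Slc38a1 to Slc38a2, each per kb of exon, was 0.810, 0.792 and 0.908 in adults and 1.12, 1.55 and 1.66 in infants. Slc38a2 had the higher per-length level in each adult library and Slc38a1 in each infant library. This pair was chosen after the values were seen, and the ratio was not tested. Its absolute size depends on the annotated exon length, 17236 bases for Slc38a1 and 8838 for Slc38a2, which does not change between libraries. In CPM without length scaling, Slc38a1 was above Slc38a2 in every library, adult and infant. Which gene led in adults therefore depends on these lengths. The third gene of the cluster, Slc38a4, had at most 1 count outside adult replicate 2.

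No promoter window was found for Slc16a6 or Slc38a1. The promoter windows of Slc16a10 and Slc38a2 are shown because these were the carriers called in addition to Slc16a6 by DESeq2. Each is the 250 bases before the annotated start, from RefSeq on GRCm38.p6, 5′ to 3′ on the gene's strand, with capitals for a match to any of 4 motifs searched on both strands.

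Slc16a10, chr10:40142255-40142504, minus strand: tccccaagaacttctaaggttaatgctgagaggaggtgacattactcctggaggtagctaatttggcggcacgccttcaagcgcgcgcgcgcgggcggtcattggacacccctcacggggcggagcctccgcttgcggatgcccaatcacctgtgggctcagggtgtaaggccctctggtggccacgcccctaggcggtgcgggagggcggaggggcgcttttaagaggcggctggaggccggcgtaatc

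Slc38a2, chr15:96699729-96699978, minus strand: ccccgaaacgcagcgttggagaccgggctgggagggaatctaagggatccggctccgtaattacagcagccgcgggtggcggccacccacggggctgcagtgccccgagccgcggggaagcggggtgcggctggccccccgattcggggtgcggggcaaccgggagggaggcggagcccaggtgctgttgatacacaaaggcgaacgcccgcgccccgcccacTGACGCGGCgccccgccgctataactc

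The motifs were the ATF4 composite element TGATGNAA, the E-box CACGTG bound by Myc and Max, the hypoxia core ACGTG, which every E-box contains, and the antioxidant core TGACNNNGC. The capitals in Slc38a2 are an antioxidant core, and none of the 4 motifs matched in the window of Slc16a10. Windows were found for 21 of the 31 expressed carriers (28 windows). The antioxidant core was in 14.3% of these and in 10.2% of all 32851 windows, the hypoxia core in 32.1% and 16.6%, the E-box in 10.7% and 6.02%, and the ATF4 element in 7.14% and 3.45%. In the same order, these carrier shares are 4, 9, 3 and 2 of the 28 windows. The E-box was found at Slc16a1, Slc36a1 and Slc38a7. Both windows with the ATF4 element belonged to Slc7a7. Carrier windows were also richer in G and C, with a median of 62.4% against 52.4%, which bears on how often such letters occur. Both printed windows were above the carrier median, at 64.4% in Slc16a10 and 72.0% in Slc38a2.

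Of the remaining Slc38 genes, Slc38a10 had 149, 110 and 162 CPM in adults against 150, 104 and 118 in infants (log2 fold change −0.18, interval −0.53 to 0.17). Slc38a9, the lysosomal arginine-sensing carrier, had 58.4, 82.7 and 63.9 CPM in adults against 77.9, 74.2 and 72.2 in infants (0.13, interval −0.19 to 0.46). Slc38a7, which moves glutamine out of lysosomes, was at 16.2 ± 4.40 CPM in adults against 19.0 ± 2.02 in infants, and Slc38a6 at 11.9 ± 3.48 and 10.3 ± 2.51. The sum over the 6 genes hardly moved, with 603, 535 and 591 CPM in adults against 603, 555 and 572 in infants.

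**Figure D3:**
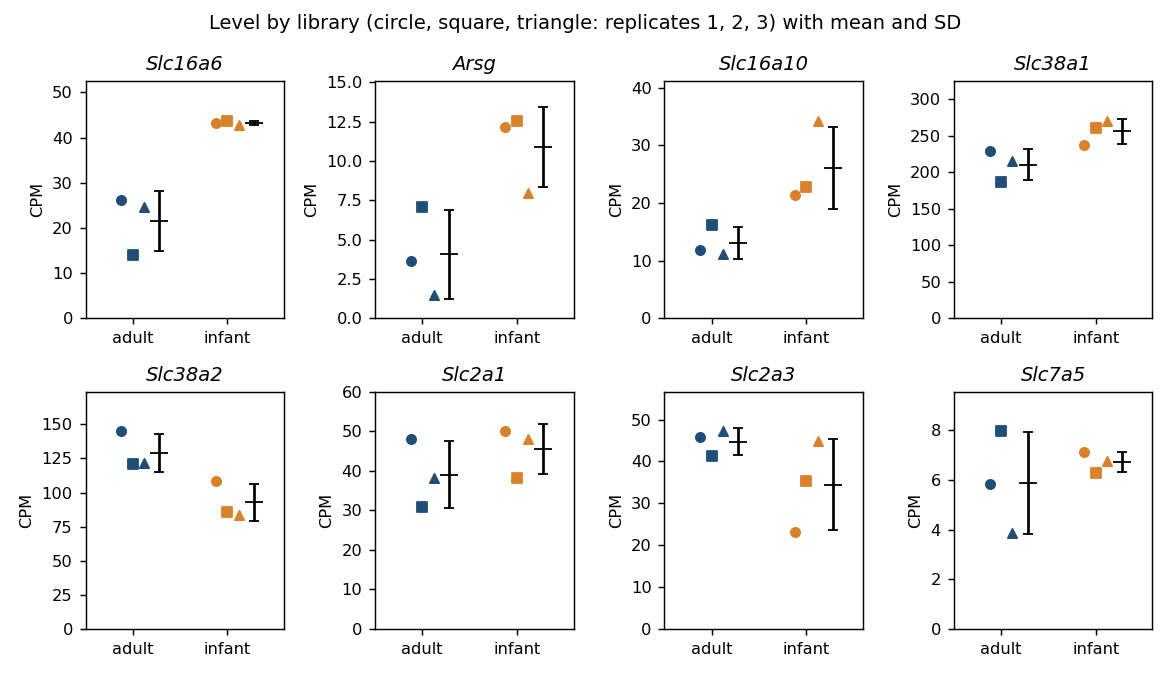
CPM of 7 carriers and of Arsg, which overlaps Slc16a6, in each library (points) with mean and SD (bar) by age. Infant points lie above all adult points for Slc16a6, Arsg, Slc16a10 and Slc38a1, below them for Slc38a2, and overlap them for Slc2a1, Slc2a3 and Slc7a5.

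Sugar carriers overlapped between ages except 1. Of 12 Slc2 genes, Slc2a1, Slc2a3, Slc2a8 and Slc2a9 were expressed, and the 4 did not pass in edgeR, DESeq2 or limma-voom. The basal glucose carrier Slc2a1 (GLUT1) had 48.0, 30.97 and 38.2 CPM in adults against 50.04, 38.2 and 48.1 in infants (log2 fold change 0.22, interval −0.20 to 0.64, edgeR adjusted p = 0.634). The interval stops short of 2-fold in either direction. Slc2a1 is also made by red cell precursors. The 8 erythroid markers summed to 3.88 to 9.94 CPM in adults and 3.38 to 9.003 in infants, with Hba-a1 at 0 in all libraries and Hba-a2 and Hbb-bt at 0 outside adult replicate 2. Ermap had 1, 10 and 6 counts in adults against 1, 1 and 0 in infants, and Klf1 0, 8 and 0 against 1, 0 and 0. Alas2, the heme synthesis enzyme of red cell precursors and the 1 tested gene of the list, had 3.39, 3.98 and 4.27 CPM in adults against 8.38, 8.71 and 3.38 in infants (log2 fold change 0.81 ± 0.48, edgeR adjusted p = 0.435). The part of such cells in the Slc2a1 values was not tested.

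The high-affinity glucose carrier Slc2a3 (GLUT3) had 45.8, 41.2 and 47.2 CPM in adults against 23.2, 35.3 and 44.9 in infants. Infant replicate 3 lay within the adult range and infant replicate 1 far below it (−0.38, interval −0.85 to 0.09, edgeR adjusted p = 0.421). Per kb of exon, Slc2a1 exceeded Slc2a3 in each library, by 2.16, 1.55 and 1.67 times in adults and 4.45, 2.24 and 2.21 times in infants. This order depends on the annotated exon lengths, 3506 bases for Slc2a1 and 7245 for Slc2a3. In CPM, Slc2a3 was higher in adult replicates 2 and 3, and Slc2a1 in adult replicate 1 and every infant library. Slc2a8 (GLUT8), an intracellular carrier, had 6.55, 11.9 and 9.19 CPM in adults against 14.7, 13.3 and 14.0 in infants, all infant values above (0.61 ± 0.31, edgeR adjusted p = 0.347). Slc2a9, a urate carrier, had 26.4, 24.7 and 28.0 CPM in adults against 38.3, 34.8 and 25.1 in infants (0.31 ± 0.21). The summed level of the 4 was 127, 109 and 123 CPM in adults against 126, 122 and 132 in infants.

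The Slc1 family was carried by Slc1a5 (ASCT2), an exchanger of glutamine and other neutral amino acids. Slc1a5 had 221, 234 and 272 CPM in adults against 246, 262 and 285 in infants, which overlapped (log2 fold change 0.12, interval −0.12 to 0.37, edgeR adjusted p = 0.637). It held 98.0% ± 0.6 (SD, n = 3) of the per-length level of the expressed Slc1 genes in adults and 98.9% ± 0.5 in infants. The alanine, serine and cysteine carrier Slc1a4 (ASCT1) was low, with 4.85, 5.68 and 3.42 CPM in adults against 2.51, 3.87 and 1.69 in infants (−0.78 ± 0.53). The acidic amino acid carriers Slc1a1, Slc1a2, Slc1a3, Slc1a6 and Slc1a7 were not expressed.

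For the heteromeric carriers, the heavy chain Slc3a2 had 199.5, 144 and 215 CPM in adults against 186, 177 and 174 in infants. All infant values lay within the adult range (log2 fold change −0.061, interval −0.36 to 0.24, edgeR adjusted p = 0.878), and without adult replicate 3 the sign turned (0.053). The other heavy chain, Slc3a1, was at 2.83 ± 1.62 CPM in adults against 4.40 ± 1.95 in infants. Slc3a1 overlaps Prepl, on the opposite strand, over 767 bases. Prepl had 94, 64 and 99 counts in adults and 81, 79 and 78 in infants, and its part in the low Slc3a1 counts was not tested. The known partner of Slc3a1, Slc7a9, was not expressed and had counts in adult replicate 2 alone. Among the light chains, Slc7a6 (y+LAT2), an exchanger of arginine and neutral amino acids, led with 73.0, 62.5 and 79.5 CPM in adults against 71.2, 93.1 and 87.4 in infants (0.22, interval −0.10 to 0.55).

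Slc7a5 (LAT1), the leucine carrier of activated T cells, had 5.82, 7.96 and 3.85 CPM in adults against 7.12, 6.29 and 6.76 in infants. The infant values lay within the adult range (0.21 ± 0.42, edgeR adjusted p = 0.862), and the sign turned without adult replicate 3 (−0.030). At 18 to 34 counts per library, its interval of −0.69 to 1.10 leaves room for a 2-fold difference. Slc7a7 (y+LAT1) had 0.970, 3.69 and 3.85 CPM in adults against 0.209, 2.42 and 3.38 in infants. It overlaps Oxa1l, on the opposite strand and with 405 to 664 counts per library, over 232 bases. The part of Oxa1l reads in the Slc7a7 counts was not tested. Per kb of exon, Slc7a6 made up 86.4% ± 4.9 of the expressed light chains in adults and 88.4% ± 1.2 in infants. Slc3a2 exceeded the sum of its 3 expressed light chains 2.41 to 3.17 times in adults and 2.20 to 3.00 times in infants. Slc7a11, the light chain of the cystine carrier, was not expressed, with 1, 34 and 0 counts in adults and 0, 2 and 12 in infants.

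The remaining groups did not pass either. Slc7a1 (CAT1), the arginine and lysine carrier, had 92.9, 86.1 and 119.6 CPM in adults against 127, 111 and 107 in infants (log2 fold change 0.20, interval −0.10 to 0.51), and the related Slc7a4 had 1.94, 2.56 and 1.28 and 2.51, 3.63 and 4.11. The taurine carrier Slc6a6 had 168, 144 and 155 CPM in adults against 190, 164 and 186 in infants (0.21, interval −0.036 to 0.46). It was the 1 expressed gene of 21 in the Slc6 family. Slc43a2 (LAT4), a facilitator of large neutral amino acids, had 52.1, 35.5 and 65.8 CPM in adults against 62.0, 57.8 and 56.8 in infants, all infant values within the adult range. Slc43a2 overlaps Gm45606, on the opposite strand, over 1378 bases. Gm45606 had 149, 116 and 182 counts in adults and 183, 128 and 123 in infants, and its part in the Slc43a2 counts was not tested. Slc43a3, a carrier of purine bases, was at 3.00 ± 1.77 CPM in adults against 3.37 ± 2.42 in infants. The proton-coupled carriers Slc36a1 and Slc36a4 were at 15.9 ± 0.76 and 6.62 ± 3.37 CPM in adults against 16.3 ± 3.15 and 8.24 ± 3.70 in infants.

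The 58 carriers that were not expressed had counts chiefly in adult replicate 2. Of their counts, 68.1% came from that library, which had 643 of them over 56 genes, against 38 to 83 counts in each of the other 5. For 20 of the 58, adult replicate 2 held the only counts, among them Slc7a14, with 35, the highest cationic carrier of these, and Slc6a17, a neutral amino acid carrier of neurons, with 37. The highest of the other groups by total count included the glutamate carrier Slc1a3, with 35 of its 42 counts there, the cystine light chain Slc7a11, with 34 of 49, and the lactate carrier Slc16a7 (MCT2), with 12 of 22. Slc43a1 had 19 of 21 and Slc2a6 12 of 21 counts in that library, and Slc38a4 9 of 11. Less of the total lay there for the creatine carrier Slc6a8, with 16 of 67, for Slc36a3, with 8 of 32, and for Slc16a11, with 6 of 28. Slc6a19, a neutral amino acid carrier of gut and kidney, had 16, 35 and 1 counts in the adults and 2, 0 and 0 in the infants. Per kb of exon the 58 carriers had 2.21 counts in adult replicate 2 and 0.131 to 0.285 in the other libraries. The 10935 other autosomal protein-coding genes that were not tested had 1.85 in adult replicate 2 and 0.186 to 0.350 in the others, so other low genes were also highest in that library.

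**Figure D4:**
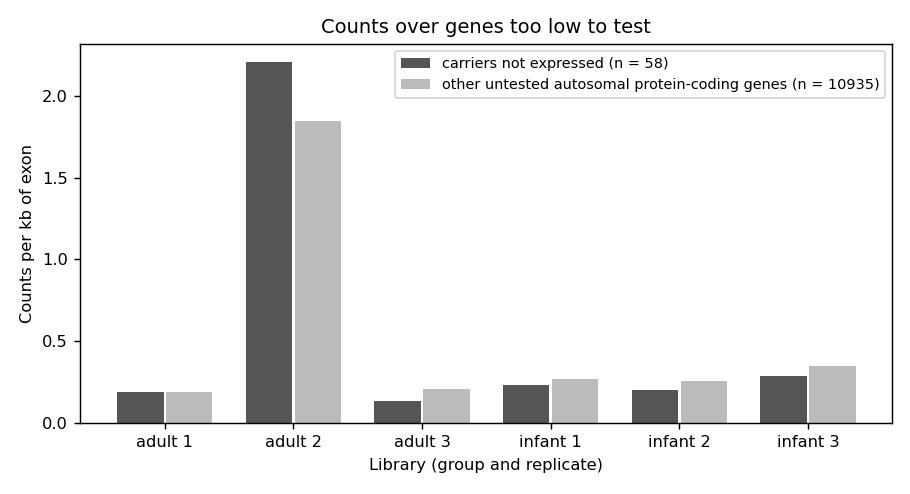
Counts per kb of exon in each library over the 58 carriers that were not expressed (dark bars) and over 10935 other autosomal protein-coding genes too low to test (light bars). Adult replicate 2 stands at 2.21 and 1.85, and no other library is above 0.350.

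Of 9 tested partners of carriers, 2 were higher in infant cells and 7 did not pass, where 1.52% of all tested genes were called higher and 2.11% lower (3.64% in all). Txnip, an arrestin-like protein known to draw GLUT1 from the surface, had 555, 293 and 428 CPM in adults against 839, 639 and 778 in infants (log2 fold change 0.82 ± 0.18, edgeR adjusted p = 0.0194). Nedd4, a ubiquitin ligase of membrane proteins, was at 6.83 ± 2.81 CPM in adults against 39.1 ± 16.2 in infants (2.54 ± 0.34, edgeR adjusted p = 9.1e-04). The call of Txnip was lost with DESeq2 and without adult replicate 3 or any 1 infant library (adjusted p up to 0.116). Emb and Bsg, which escort monocarboxylate carriers to the membrane, were at 619 ± 48.0 and 124 ± 9.7 CPM in adults against 613 ± 24.7 and 119 ± 14.1 in infants.

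Among 22 tested enzymes that handle or make carrier substrates, 4 were higher in infant cells and 18 did not pass, beside 1.52% of all tested genes called higher. Ckb, a creatine kinase, was at 44.4 ± 2.91 CPM in adults against 103 ± 19.5 in infants (log2 fold change 1.22 ± 0.16). Ckb kept its call without any 1 library, and the creatine carrier Slc6a8 was not expressed. Ldha, which makes lactate from pyruvate, was at 701 ± 44.9 CPM in adults against 937 ± 85.5 in infants (0.42 ± 0.10, edgeR adjusted p = 0.0345). Psat1 of serine synthesis had 0.74 ± 0.18 and Shmt1, which splits serine to glycine, 0.83 ± 0.21. The calls of these 3 each depended on 4 or 5 of the 6 libraries (adjusted p up to 0.186): Psat1 kept its call only without adult replicate 3 or infant replicate 1, Ldha only without adult replicate 2, and Shmt1 only without infant replicate 3.

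Of 27 tested genes of amino acid sensing at the lysosome, 2 were lower in infant cells and 25 did not pass, beside 2.11% of all tested genes called lower. Rragb, a Rag GTPase that recruits mTORC1, had 12.4, 8.81 and 13.5 CPM in adults against 3.56, 3.63 and 2.17 in infants (log2 fold change −1.88 ± 0.41, edgeR adjusted p = 0.0188). Sesn1, which encodes a sestrin, an inhibitor upstream of mTORC1, had 296, 276 and 266 CPM and 198, 219.8 and 186 (−0.47 ± 0.11, edgeR adjusted p = 0.0255). Each of these calls was kept without adult replicate 2 and lost without any 1 of the other 5 libraries (adjusted p up to 0.144). Among 14 tested regulators of carrier transcription, 1 was lower in infant cells and 13 did not pass, beside the same 2.11% of all tested genes. It was Epas1, which encodes HIF-2α, at 21.6 ± 4.71 CPM in adults against 3.46 ± 2.19 in infants (−2.64 ± 0.40). Epas1 kept its call without any 1 library. The 13 tested carriers of the same substrates in other families did not pass in edgeR. The most abundant, Slc50a1, a sugar carrier, was at 158 ± 16.8 CPM in adults against 145 ± 7.1 in infants, and Slc37a1, a sugar phosphate carrier, at 100.3 ± 11.8 and 100.4 ± 5.0. Median log2 fold changes of the 5 lists were −0.054 for partners, 0.081 for enzymes, −0.023 for sensing genes, −0.17 for regulators and −0.16 for other carriers, beside −0.0017 for all tested genes.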

How the data were processed

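RNA-seq libraries of lymph node CD4+ T cells from 3 adult and 3 infant mice were used. The submitters' processing notes name STAR 2.5.4, featureCounts and mm10. The featureCounts version, the annotation and the handling of multiply mapped reads are not in the sources used here. Per the labels' protocols, poly(A) RNA was copied from an oligo(dT) primer, amplified by PCR and read as pairs of 25 bases, and no molecular identifiers or strand marking are named. Counts therefore include PCR copies, and reads of close copies or antisense partners may be shared. Of the 31 expressed carriers, 8 overlap another tested gene in GENCODE M21. The authors deposited raw counts per gene symbol, not normalized.

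All genes were fitted with edgeR 4.0.16 in R 4.3.3 (filterByExpr with minimum count 10 and minimum total 15, 11681 genes kept, TMM factors 0.963 to 1.07, quasi-likelihood F test, no covariate, Benjamini-Hochberg at 0.05). CPM used TMM-scaled totals of tested genes. An SE was obtained by dividing the absolute log2 fold change by sqrt(F), and intervals are 95% from the test's degrees of freedom. Exon lengths are unions of annotated exons. Alternatives were DESeq2 1.42.0, limma 3.58.1 (voom with quality weights), DESeq2 size factors, library totals, 3 other filters, a replicate block and leaving out each library. The fit was tested on simulated counts.

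The carriers and lists were chosen with earlier results of these data known. Named were all expressed carriers, the carrier of highest total count in each substrate group among those not expressed, and of each list up to 4 members at an adjusted p under 0.05, or else the 2 of highest CPM. Slc2a4, Slc6a17, Slc7a9, Emb, Bsg, Arsg and Amz2 were added after their values were seen. 1 symbol of the sensing list, 4932438A13Rik, was left out as listed in error.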

Additional observations from a re-analysis of the deposited data

How the results depend on the processing

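The number of genes called between ages was 425, and 139 to 488 when any 1 library was left out. Of the carriers, 1 was called in the reported fit, 3 with DESeq2, 2 with limma-voom, 5 with no filter on low counts, 2 with the stricter filter (a mean of at least 20 counts) and 0 to 2 when any 1 library was left out. The carrier called without adult replicate 3 was Slc6a19, lower in infant cells. The calls without a filter were Slc16a6, Slc16a10, and Slc6a17, Slc6a19 and Slc7a14, whose counts lay in adult replicate 2 alone for Slc6a17 and Slc7a14 and chiefly in adult replicates 1 and 2 for Slc6a19. With the replicate number as a block, 326 genes and 1 carrier were called; same-numbered libraries did not deviate together (correlations −0.0919 to −0.0108), no library correlated best with its own number, and the block changed no carrier's call but ended those of Rragb and Shmt1. With no filter the calls of Sesn1 and Ldha were also lost. Of 428 comparisons of an expressed carrier with an alternative, 406 kept direction and side of the threshold.

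Signs turned for some genes, none of them past the threshold. When any 1 library was left out, log2 fold changes ran from −0.21 to 0.053 for Slc3a2 (above 0 without adult replicate 3), from −0.0026 to 0.42 for Slc43a2 (below 0 without adult replicate 2) and from −0.030 to 0.48 for Slc7a5 (below 0 without adult replicate 3). They ran from −0.44 to 0.62 for Slc43a3 (−0.23 without adult replicate 3, lowest without infant replicate 2), from −1.12 to 0.041 for Slc7a7 (above 0 without infant replicate 1) and from −0.41 to 0.055 for Slc38a6 (above 0 without adult replicate 2). They ran from −0.13 to 0.13 for Slc36a1 (−0.0014 without adult replicate 2, lowest without infant replicate 1), from −0.077 to 0.62 for Slc36a4 (−0.053 without adult replicate 3, lowest without infant replicate 3) and from −0.052 to 0.11 for Slc37a1. With limma-voom Slc36a1 was at −0.021 and Slc37a1 at −0.033, and with no filter Cd3e at 0.0032. All 11 summed levels kept their ratio within the spread between libraries. The cause of these differences was not tested. Depth limits carriers under about 10 counts in a library, for which no change can be read.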
